A study of Mus musculus with 56 samples.

Results

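Livers of 16 mice given ponatinib at 1 of 2 doses were compared with each other, 8 mice at 10 mg/kg (high dose) against 8 mice at 3 mg/kg (low dose), across all genes and without the control mice. They were chosen by the compound and dose in the sample labels and are 16 of the 56 mice sequenced. All were female APOE*3Leiden.CETP mice, 9 to 14 weeks of age at the start. They carry the human transgenes APOE*3Leiden, with human APOC1 on the same construct, and CETP. Their lipoprotein metabolism is more like that of humans than that of wild-type mice is. Every mouse received a Western-type diet with 15% cacao butter and 0.15% cholesterol, its drug by daily oral gavage in carboxymethyl cellulose, and a second gavage of that vehicle each day. Per the study, 3 weeks on the diet alone came first, and the mice were sacrificed after 16 weeks of treatment. The 8 control mice, which received vehicle alone on the same diet, and the 16 nilotinib mice (8 at 10 mg/kg and 8 at 30 mg/kg) are used here only to place the values. Whole liver was sequenced, so that a change in the number of cells of a type and a change in RNA per cell cannot be told apart. Reads of the human transgenes have no gene of their own in the mouse annotation and are not analysed here.

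Ponatinib is a tyrosine kinase inhibitor used against chronic myeloid leukemia. It blocks BCR-ABL and, beyond it, receptors of the VEGF, FGF and PDGF families, KIT, TIE2 and kinases of the SRC family. Hepatocytes make up most of the liver's mass and its RNA, and divide the work of lipoprotein secretion, urea synthesis, drug conjugation and bile formation along the axis from the portal tract to the central vein. Their energy comes largely from the mitochondrial respiratory chain, whose 5 complexes are built from subunits encoded in the nucleus and in mitochondrial DNA.

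Depth was nearly equal between the doses. The number of reads counted on genes ranged from 6980407 to 15789978 at 3 mg/kg (median 7618552) and from 7067386 to 11997763 at 10 mg/kg (median 7483914), and the means did not differ (exact permutation test, two-sided, p = 0.906). The share of uniquely aligned reads that fell outside annotated genes did differ. The low-dose mice had 8.53% ± 0.61 and the high-dose mice 11.0% ± 1.99 (SD, n = 8 per group; difference 2.51 percentage points, exact permutation p = 0.00124, adjusted p = 0.00249 over 4 library measures), beside 7.97% ± 0.42 in control mice (n = 8). Reads with more than 1 alignment, which are counted on no gene, made up 32.7% ± 0.80 of the listed reads at 3 mg/kg and 35.9% ± 1.52 at 10 mg/kg (SD, n = 8 per group; exact permutation p = 0.000466, adjusted p = 0.00186 over the 4 measures). Genes with at least 1 read numbered 14774 ± 852 (3 mg/kg) and 14914 ± 1507 (10 mg/kg) (SD, n = 8 per group; exact permutation p = 0.853). The exact permutation test cannot go below p = 0.000155 with 8 mice in each group.

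3 libraries stood apart. The 10 mg/kg replicate 4 had a read on 13318 genes and the 3 mg/kg replicate 3 on 13238, the fewest of their groups, and each took an axis of the principal component analysis to itself. Replicate 3 at 10 mg/kg had the most genes with a read (18282) and the largest share of reads outside genes (15.2%). Values without them are given below for part of the genes and lists, and not for every one whose call changed.

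**Figure D1:**
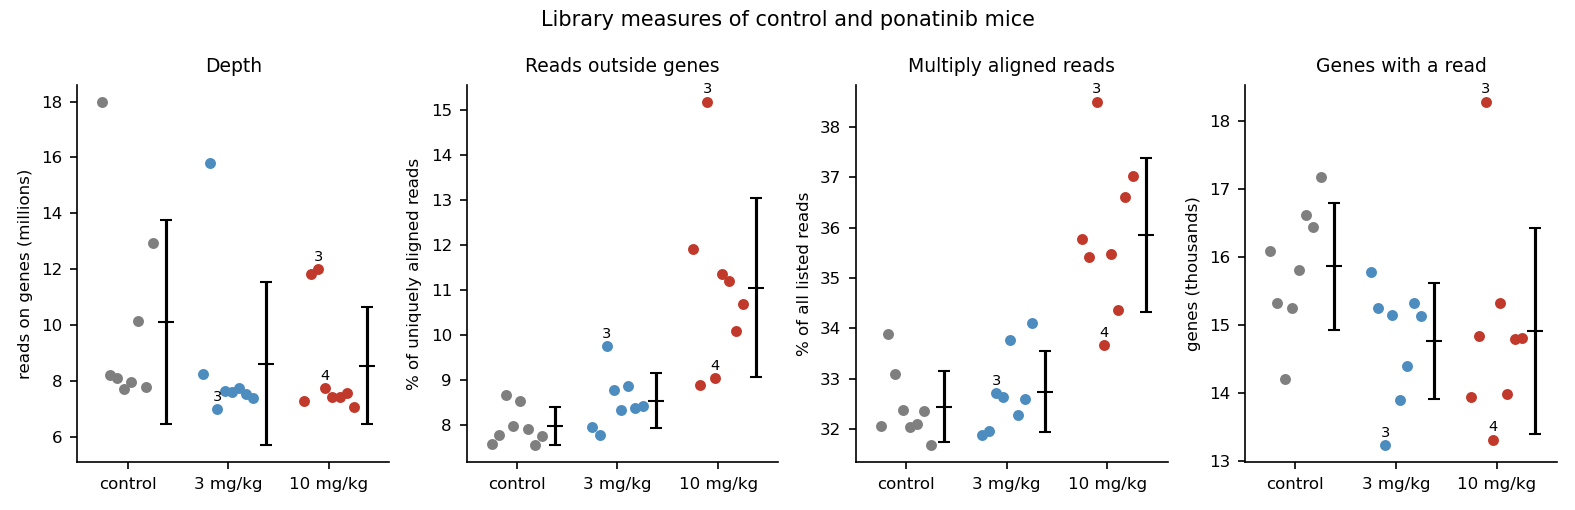
Reads on genes, share of uniquely aligned reads outside annotated genes (%), share of reads with more than 1 alignment (%) and genes with at least 1 read in each mouse of the control, 3 mg/kg and 10 mg/kg groups, with the mean and SD (n = 8) beside the points and the libraries that stood apart marked by replicate number. The shares outside genes reach 15.2% at 10 mg/kg and no more than 9.75% at 3 mg/kg, while the depths overlap.

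Between the doses 32 of 12464 genes passed an adjusted p below 0.05 in edgeR (0.257% of those tested). Of these, 25 were higher at 10 mg/kg (0.201%) and 7 were lower (0.0562%). At the cut-off of the study, an unadjusted p below 0.01, 372 genes were higher (2.98%) and 230 lower (1.85%), and over all genes the median log2 fold change was 0.02. A gene is called below where it passed the adjusted threshold, and only called genes are said to have risen or fallen. In 20 genes (0.16%) the 8 mice of one dose did not overlap the 8 of the other in CPM, the reads of a gene scaled to a common library size, 9 of them called. Among the called genes the largest change was that of Peg3, at a log2 fold change of 1.46.

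This count depended on single mice. It was 542 without 10 mg/kg replicate 4, 102 without 10 mg/kg replicate 2, and 29 and 22 without 3 mg/kg replicate 4 and 10 mg/kg replicate 6. Without replicates 1, 3, 5, 7 and 8 at 10 mg/kg it was 6, 10, 14, 20 and 9, and without replicates 1, 2, 3, 5, 6, 7 and 8 at 3 mg/kg it was 6, 14, 15, 3, 11, 0 and 13. The fit without 3 mg/kg replicate 7 that called no gene had 1429 genes at an unadjusted p below 0.05. Of the 32 genes, 10 were called without 10 mg/kg replicate 3. Without both libraries with the fewest genes, a choice made once the data had been seen, 484 of 12512 genes were called, 263 higher (2.1%) and 221 lower (1.77%), and all 32 genes were among them. Counts of list members called without both libraries are to be read beside these shares. With the outside-gene share as a covariate no gene was called in edgeR (578 at an unadjusted p below 0.05), though all 32 kept their direction. That share rose with the dose as described above.

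**Figure D2:**
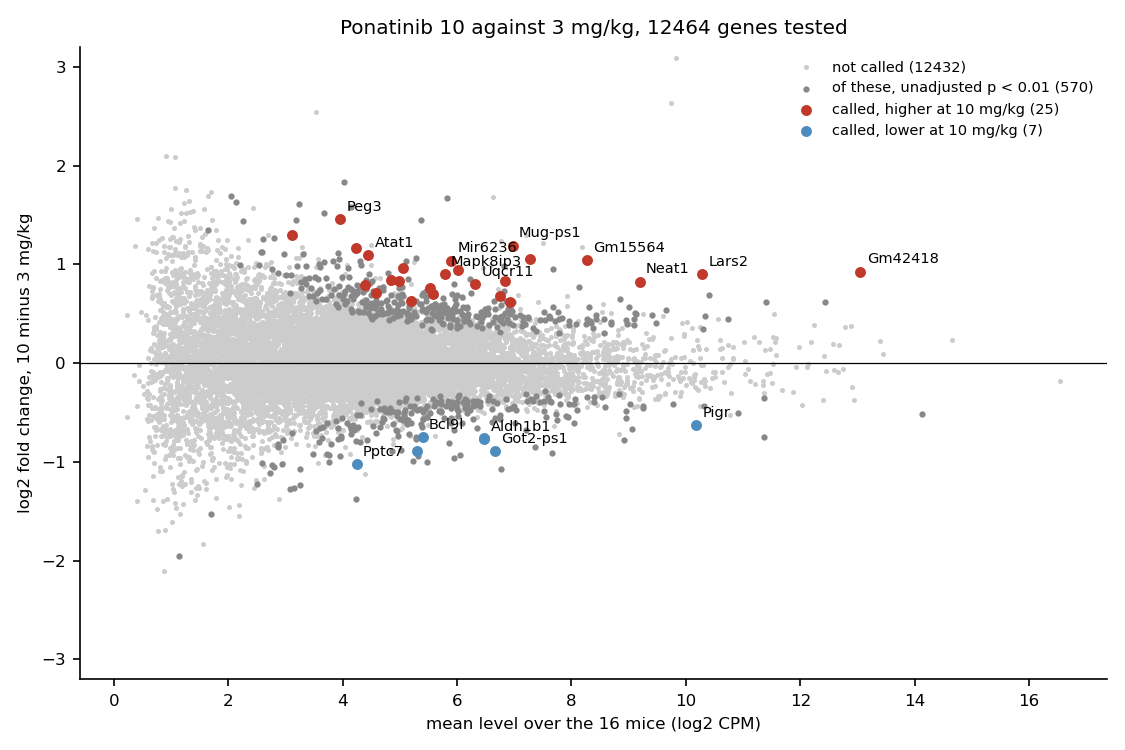
Log2 fold change of 10 minus 3 mg/kg against the mean level (log2 CPM) for the 12464 genes tested, with the 25 called genes that were higher in red and the 7 that were lower in blue. The called genes lie between log2 fold changes of -1.02 and 1.46.

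**Figure D3:**
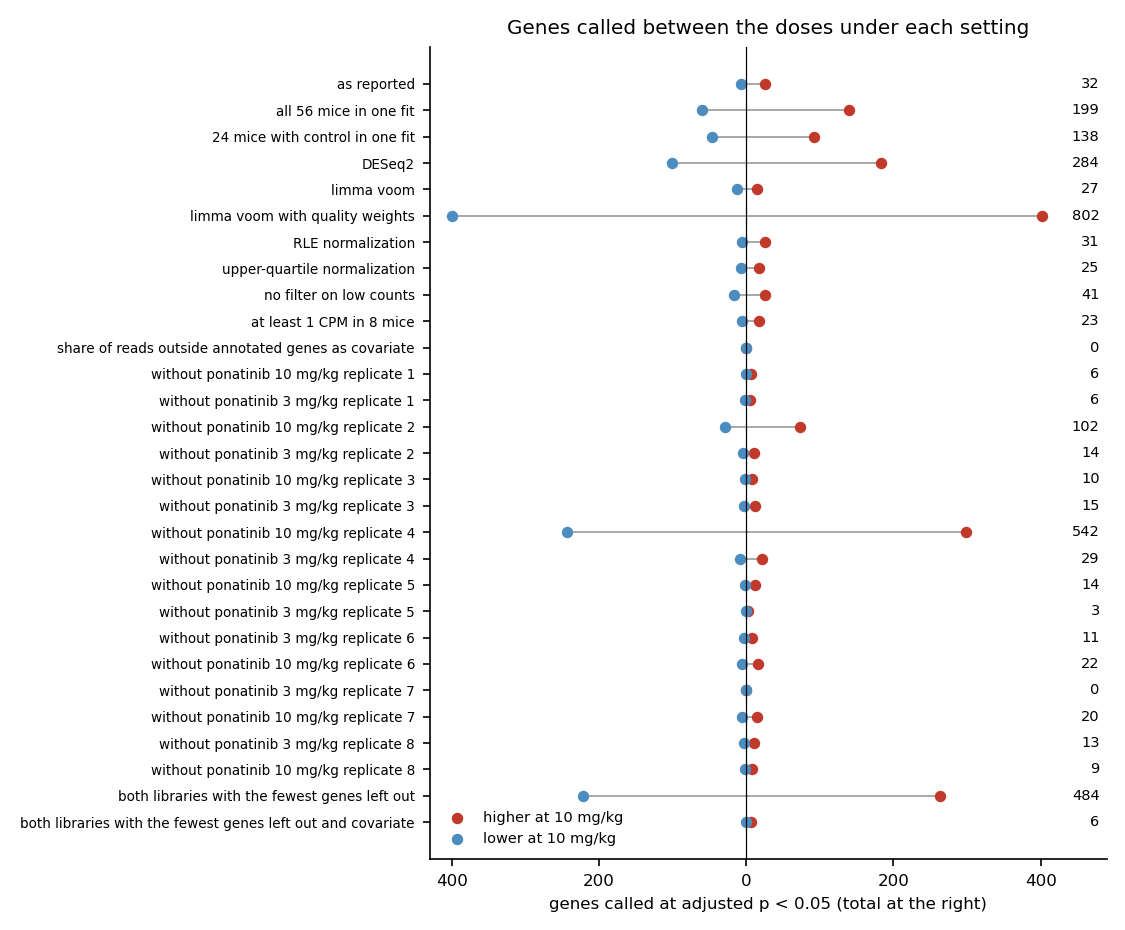
Number of genes called at an adjusted p below 0.05 in each setting, lower at 10 mg/kg to the left and higher to the right, with the total at the right edge. The count runs from 0 to 802 and is 32 as reported.

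Among the 5 genes with the smallest p-values were a locus that resembles ribosomal RNA and its neighbour. Gm42418 (chromosome 17, 39846958 to 39848788 of GRCm38; log2 values compare 10 with 3 mg/kg throughout) is an alternative name of Rn18s-rs5, an 18S ribosomal RNA sequence that RefSeq lists as a pseudogene. It ranged from 4554 to 7474 CPM at 3 mg/kg (median 5825) and from 6726 to 13793 CPM at 10 mg/kg (median 12110). Its log2 fold change was 0.92 (standard error, SE, 0.14; adjusted p = 0.012 from edgeR), with all 8 high-dose mice above the low-dose median. Gm26917, its neighbour (chromosome 17, 39843013 to 39846341), rose by a log2 fold change of 1.06 (SE 0.18, adjusted p = 0.012), and Gm15564, an antisense RNA gene on chromosome 16, by 1.04 (SE 0.17, adjusted p = 0.012). These Gm loci lie outside the rule for named genes and were chosen after their values were seen. Lars2, the mitochondrial leucyl-tRNA synthetase (chromosome 9, 123366927 to 123462666), was between 551 and 1014 CPM at 3 mg/kg (median 938) and between 1104 and 2162 CPM at 10 mg/kg (median 1674). Every high-dose mouse lay above every low-dose mouse (log2 fold change 0.90, SE 0.15, adjusted p = 0.012). With the share of reads outside genes as a covariate Gm42418 was at 1.08 and Lars2 at 0.99, not past adjustment. Near-identical copies of ribosomal RNA occur elsewhere in the genome, so the counts of Gm42418 are uncertain, as are those shared with the genes on its opposite strand. Whether ribosomal RNA reads are also counted on Gm26917, Gm15564 or Lars2 was not tested.

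Mir6236 (chromosome 9, 110281287 to 110281409), a microRNA locus, was called as well. RefSeq lists for it a mature RNA of 19 bases, at chromosome 9, 110281353 to 110281371 (plus strand, GRCm38.p6), shown here because the locus is among the called genes, with bases 2 to 8, the seed, in capitals.
mmu-miR-6236: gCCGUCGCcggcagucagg
Its level ranged from 19.8 to 53.6 CPM at 3 mg/kg (median 39.5) and from 46.2 to 124 CPM at 10 mg/kg (median 77.9), a log2 fold change of 1.04 (SE 0.19, adjusted p = 0.024). Poly(A)-selected libraries hold fragments longer than a mature microRNA, so these reads do not measure one.

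Of the nuclear-retained and long non-coding RNAs, a list of 10 tested genes taken as a measure of nuclear RNA, 1 was called, 3 had an unadjusted p below 0.01, all higher, and the median log2 fold change was 0.47. Neat1, the scaffold of nuclear paraspeckles, lay between 368 and 507 CPM at 3 mg/kg (median 423) and between 553 and 1414 CPM at 10 mg/kg (median 688). The groups did not overlap (log2 fold change 0.82, SE 0.16, adjusted p = 0.025), and the value of 1414 belonged to replicate 3, the library with the most reads outside genes. Without that mouse Neat1 was at 0.63 (adjusted p = 0.029). Malat1, which resides in nuclear speckles, was at 142 ± 13.7 and 274 ± 232 CPM (SD, n = 8 per group), with the highest mouse at 842 CPM. Its log2 fold change of 0.95 (adjusted p = 0.11) was 0.45 without replicate 3 at 10 mg/kg (adjusted p = 0.19) and turned to -0.16 with the share of reads outside genes as a covariate, while without both libraries with the fewest genes it was 1.06 (adjusted p = 0.038). Xist, the RNA that coats the inactive X chromosome, had a log2 difference of 0.49 (adjusted p = 0.10). Summed over the list, the level ran from 1045 to 1256 CPM at 3 mg/kg, from 1316 to 3215 CPM at 10 mg/kg and from 836 to 1355 CPM in control mice, without overlap between the doses. Neat1 and Xist, with means of 429 and 471 CPM at 3 mg/kg, made up most of this sum. The mean log2 level of the 10 genes, centred for each gene, did overlap. It ran from -0.25 to 0.18 at 3 mg/kg and from -0.20 to 1.00 at 10 mg/kg. With the outside-gene share as a covariate the median of the list was 0.15 and none of the 10 was past the unadjusted cut-off, and without both libraries with the fewest genes 3 were called, all higher (median 0.53), Xist with an adjusted p of 0.0061.

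Other called genes that rose belong to unlike processes. Pfdn6, a subunit of the prefoldin chaperone, ranged from 12.4 to 27.4 CPM at 3 mg/kg (median 19.6) and from 30.1 to 45.5 CPM at 10 mg/kg (median 36.7), without overlap (log2 fold change 0.84, SE 0.16, adjusted p = 0.023). Sned1, an extracellular matrix protein, did not overlap either, at 12.3 to 17.8 CPM and 19.5 to 35.9 CPM (log2 fold change 0.79, adjusted p = 0.036). Mapk8ip3, a scaffold of JNK signaling, rose from a median of 39.9 to 74.6 CPM (log2 fold change 0.90, SE 0.16, adjusted p = 0.023), with 7 of 8 high-dose mice above the low-dose median. Its exons overlap those of other genes, as do those of Neat1, Atat1, Als2cl, Abcc10, Pfdn6, Sned1, Pabpn1, 2010111I01Rik, Bcl9l, Pptc7 and Got2-ps1. The same holds for several genes named below that were not called, among them Trf, Apoc4, Fdps and Rps10. The strand setting of the counting is not given in the sources used here, so the reads of such pairs may not be told apart. Abcc10, an ABC transporter of lipophilic anions, rose by 0.97 (adjusted p = 0.026), Atat1, the α-tubulin acetyltransferase, by 1.09 (adjusted p = 0.033), Als2cl by 0.94 (adjusted p = 0.036) and Fam193b by 0.83 (adjusted p = 0.023) on the log2 scale. Peg3, an imprinted zinc-finger gene expressed from the paternal allele, was low in every group. It ranged from 1.95 to 14.7 CPM at 3 mg/kg (median 7.74) and up to 38.5 CPM at 10 mg/kg (median 21.8), beside 5.06 ± 1.85 CPM in control mice (SD, n = 8), and its log2 fold change between doses was 1.46 (SE 0.30, adjusted p = 0.036).

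Further called genes that rose fall outside the naming rule. They were Pabpn1, the nuclear poly(A)-binding protein (log2 fold change 0.70), Ogt, the O-GlcNAc transferase (0.62), Slc25a38, the mitochondrial glycine carrier of haem synthesis (0.71), Ip6k2, an inositol hexakisphosphate kinase (0.76), Miip (0.83), Cfdp1 (0.63) and 2010111I01Rik (1.16), with adjusted p-values from 0.036 to 0.049. Pabpn1 and Slc25a38 did not overlap between the doses.

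Of the 7 genes that fell, 3 are processed pseudogenes. Bcl9l, a coactivator of β-catenin, was between 39.7 and 78.2 CPM at 3 mg/kg (median 51.2) and between 25.5 and 37.8 CPM at 10 mg/kg (median 31.0). All 8 high-dose mice lay below all low-dose mice (log2 fold change -0.75, SE 0.14, adjusted p = 0.023), and the low-dose mean of 53.5 ± 11.8 CPM was close to the control mean of 53.1 ± 7.82 CPM (SD, n = 8 per group). Pptc7, a mitochondrial matrix phosphatase, did not overlap either. It ranged from 19.0 to 33.8 CPM at 3 mg/kg (median 24.3) and from 8.98 to 18.4 CPM at 10 mg/kg (median 11.3), a log2 fold change of -1.02 (SE 0.20, adjusted p = 0.025). Aldh1b1, a mitochondrial aldehyde dehydrogenase, lay between 85.1 and 141 CPM (median 114) and between 47.8 and 85.2 CPM (median 65.8), so that the groups met only at their edges (log2 fold change -0.77, SE 0.15, adjusted p = 0.025). Pigr, the receptor that carries polymeric immunoglobulin A into bile, was at 1239 to 1709 CPM (median 1428) and 723 to 1445 CPM (median 792). It fell by 0.63 on the log2 scale (SE 0.13, adjusted p = 0.048), and 7 of 8 high-dose mice lay below the low-dose median.

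Called pseudogenes are set beside the genes they resemble, without a test of the difference. Got2-ps1 ranged from 119 to 159 CPM at 3 mg/kg (median 129) and from 37.8 to 116 CPM at 10 mg/kg (median 61.4), without overlap (log2 fold change -0.89, SE 0.17, adjusted p = 0.028). Got2 itself, the mitochondrial aspartate aminotransferase, had a log2 difference of -0.20 (SE 0.11, adjusted p = 0.44). Mug-ps1 rose from a median of 76.1 to 165 CPM (log2 fold change 1.19, SE 0.20, adjusted p = 0.012), whereas Mug1 and Mug2, the murinoglobulin protease inhibitors, were at -0.44 (adjusted p = 0.42) and -0.43 (adjusted p = 0.26). Mug1 was at 0.11 with the outside-gene share as a covariate and at -0.74 (adjusted p = 0.047) without both libraries with the fewest genes. Gm5421 and Gm15163, also processed pseudogenes that fell, were at -0.89 (adjusted p = 0.023) and -0.76 (adjusted p = 0.049). The counts of pseudogenes are uncertain, since only reads that align to a copy alone were counted. Got2, Mug1, Gm5421 and Gm15163 were chosen after their values were seen.

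**Figure D4:**
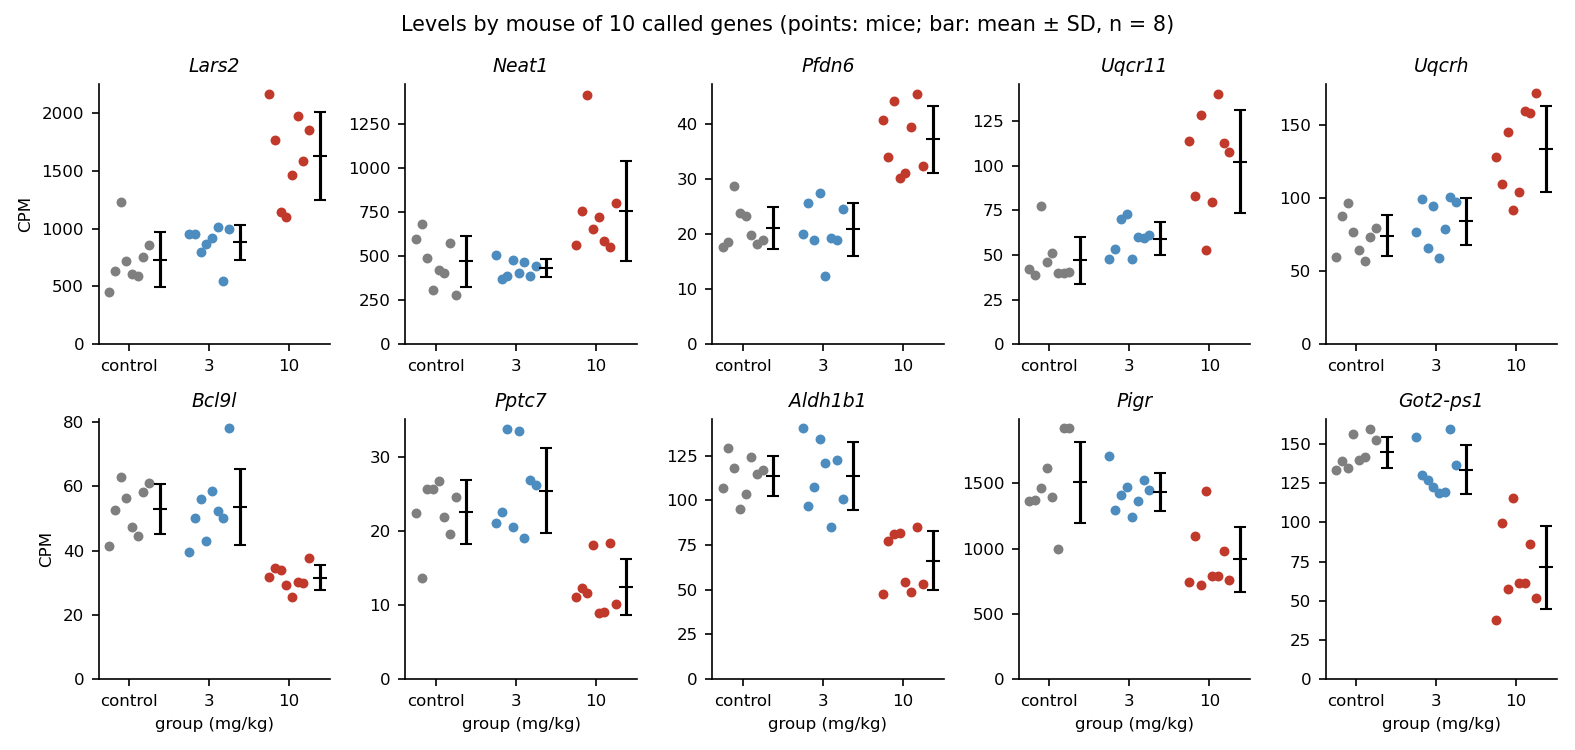
Level in CPM of 10 called genes in each mouse of the control, 3 mg/kg and 10 mg/kg groups, with the mean and SD (n = 8) beside the points; every axis starts at 0. In Lars2, Neat1, Pfdn6, Bcl9l, Pptc7 and Got2-ps1 the doses do not overlap, and in Uqcr11, Uqcrh, Aldh1b1 and Pigr they do.

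Subunits of the respiratory chain were mostly higher at the high dose, few of them past adjustment. Of 79 nuclear-encoded subunits tested, 2 were called, both higher, 29 were higher and 1 lower at an unadjusted p below 0.01, and 70 had an estimate above 0. Their median log2 fold change was 0.39, beside 0.02 for all genes, of which 2.98% were higher at that cut-off. Without both libraries with the fewest genes 27 subunits were called higher and 2 lower (median 0.43), without replicate 3 at 10 mg/kg 16 were higher at an unadjusted p below 0.01, and with the share of reads outside genes as a covariate 1 was higher at an unadjusted p below 0.01 (median 0.12). Against control mice the subunits had medians of 0.27 (3 mg/kg) and 0.67 (10 mg/kg).

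By complex, 15 of 37 complex I subunits (NADH dehydrogenase) were higher at an unadjusted p below 0.01 (median log2 fold change 0.39), 5 of 9 of complex III (cytochrome bc1, 0.31), 5 of 12 of complex IV (cytochrome c oxidase, 0.44) and 4 of 14 of complex V (ATP synthase, 0.35). None of the 4 subunits of complex II (succinate dehydrogenase, 0.02) was higher and 1 was lower at that cut-off. Uqcr11, a small subunit of complex III, ranged from 47.7 to 73.1 CPM at 3 mg/kg (median 59.9) and from 52.6 to 140 CPM at 10 mg/kg (median 110). The groups overlapped through 1 high-dose mouse, replicate 4 at 52.6 CPM, and the other 7 lay above every low-dose mouse (log2 fold change 0.80, SE 0.16, adjusted p = 0.036). Uqcrh, the hinge subunit of the same complex, was between 59.3 and 101 CPM (median 86.8) and between 91.6 and 172 CPM (median 136), with all 8 high-dose mice above the low-dose median (log2 fold change 0.68, SE 0.15, adjusted p = 0.048). Ndufa6 of complex I had a log2 difference of 0.62 (SE 0.14, adjusted p = 0.066) and Cox7a2 of complex IV one of 0.62 (SE 0.15, adjusted p = 0.070). Without both libraries with the fewest genes their adjusted p-values were 0.0092 and 0.0099. Ndufa6 and Cox7a2 were at 0.27 and 0.47 with the share of reads outside genes as a covariate (unadjusted p = 0.14 and 0.031 from edgeR).

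Promoters of these 4 genes are shown because they had the smallest p-values of the 79 subunits. Each is the 120 bases before the RefSeq start on GRCm38.p6, 5′ to 3′ on the minus strand that all 4 genes use, with an ETS-type motif (CCGGAAG) or the core of the NRF1 motif (TGCGCA), either strand, in capitals. Uqcr11 lies at chr10:80406822-80406941, Uqcrh at chr4:116075071-116075190, Ndufa6 at chr15:82354292-82354411 and Cox7a2 at chr9:79759854-79759973.
Uqcr11: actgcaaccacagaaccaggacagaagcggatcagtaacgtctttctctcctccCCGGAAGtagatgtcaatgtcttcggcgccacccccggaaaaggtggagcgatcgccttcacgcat
Uqcrh: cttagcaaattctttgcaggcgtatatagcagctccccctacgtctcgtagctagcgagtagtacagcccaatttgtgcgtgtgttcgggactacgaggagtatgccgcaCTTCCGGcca
Ndufa6: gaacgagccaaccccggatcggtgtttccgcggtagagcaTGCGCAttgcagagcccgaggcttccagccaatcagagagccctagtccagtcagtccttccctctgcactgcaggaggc
Cox7a2: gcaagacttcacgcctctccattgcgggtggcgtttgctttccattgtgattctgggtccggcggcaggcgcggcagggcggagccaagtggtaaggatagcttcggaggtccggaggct
Uqcr11 and Uqcrh held the ETS-type letters, Ndufa6 the NRF1 core, and Cox7a2 neither. In the 250 bases before the start, the ETS-type letters occurred in 7 of the 26 promoters found for subunits higher at an unadjusted p below 0.01 (26.9%), in 4 of the 43 of the other subunits (9.3%) and in 6.91% of all 32851 promoters. The NRF1 core occurred in 6 of the 26 (23.1%), in 7 of the 43 (16.3%) and in 6.43% of all promoters. These matches describe letters, not binding.

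Of 9 genes of mitochondrial DNA tested, none was called and 1, the large ribosomal RNA mt-Rnr2, was higher at an unadjusted p below 0.01 (log2 fold change 0.48, SE 0.16, adjusted p = 0.18). The low-dose mice had 1096 ± 263 CPM, the high-dose mice 1514 ± 393 CPM and the control mice 743 ± 174 CPM (SD, n = 8 per group). The small ribosomal RNA mt-Rnr1 had a log2 difference of 0.40 (adjusted p = 0.25), and the complex I genes mt-Nd1 and mt-Nd4 were at 0.20 (adjusted p = 0.44) and 0.22 (adjusted p = 0.47), and at 0.10 and 0.085 without replicate 3 at 10 mg/kg.

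Cytosolic ribosomal proteins lay mostly above 0. None of the 67 tested was called, 12 were higher and none lower at an unadjusted p below 0.01, 61 had an estimate above 0, and the median log2 fold change was 0.37. By subunit, 6 of 41 genes of the large and 6 of 25 of the small subunit were past the unadjusted cut-off. Without both libraries with the fewest genes 14 were called, all higher, among them the 3 named next. Rpl34 ranged from 16.1 to 43.4 CPM at 3 mg/kg (median 35.2) and from 39.8 to 67.3 CPM at 10 mg/kg (median 53.7), with a log2 fold change of 0.67 (SE 0.16, adjusted p = 0.070). Rps10 was at 0.98 (adjusted p = 0.087) and Rps12 at 1.69 (adjusted p = 0.087), the last from 1.87 ± 0.615 CPM (SD, n = 8). Ribosomal protein genes have many processed copies in the genome, so their counts are uncertain. Of 42 translation factors and EIF2 kinases tested, 1 was higher and 1 lower at the unadjusted cut-off (median -0.05), Eif3k at 0.44 (adjusted p = 0.18, and 0.0495 without both libraries with the fewest genes) and the haem-regulated kinase Eif2ak1 at -0.37 (adjusted p = 0.15).

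Both lists hold short genes, and short genes as a whole were higher at the high dose. The median exon length was 1718 bases in the respiratory chain list and 2007 bases in the ribosomal protein list, beside 4257.5 bases over all genes tested. Among protein-coding genes with up to 1000 bases of exon the median log2 fold change was 0.35 (195 genes, 28 higher and 0 lower at an unadjusted p below 0.01), and it was 0.17 between 1000 and 2000 bases (1177 genes), 0.02 between 2000 and 4000 (3503 genes), -0.02 between 4000 and 8000 (4435 genes) and -0.03 above 8000 (2098 genes). With the share of reads outside genes as a covariate the median of the shortest class was 0.16. The part of gene length in the values of the lists was not tested.

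**Figure D5:**
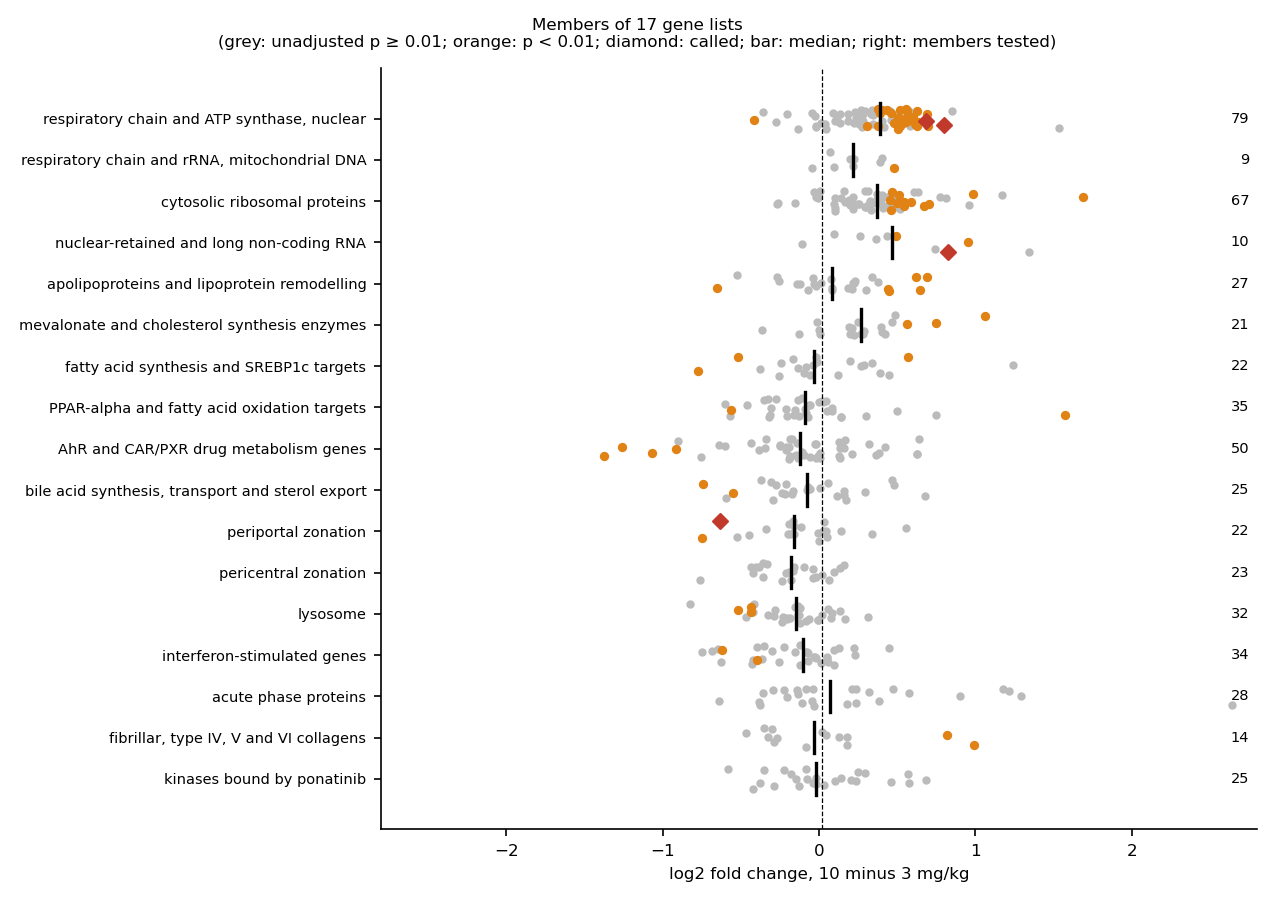
Log2 fold change of 10 minus 3 mg/kg of every tested member of 17 gene lists, in grey at an unadjusted p of 0.01 or above, in orange below it and as a red diamond where called; the black bar is the median of the list, the dashed line that of all genes, and the number of members tested stands at the right. The respiratory chain, ribosomal protein and nuclear RNA lists have medians of 0.39, 0.37 and 0.47, while the lists of drug metabolism, zonation and lysosome genes have medians below 0.

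Among genes of lipoproteins, none of 27 was called, and 5 were higher and 1 lower at an unadjusted p below 0.01 (median log2 fold change 0.09). Apoc3, the inhibitor of triglyceride clearance, was nearest to the threshold. It ranged from 845 to 1270 CPM at 3 mg/kg (median 1035) and from 951 to 2592 CPM at 10 mg/kg (median 1714), with 7 of 8 high-dose mice above the low-dose median (log2 fold change 0.69, SE 0.15, adjusted p = 0.056). Apoc4, a gene of the Apoe cluster, was at 0.65 (adjusted p = 0.076), Apoa2, the second protein of HDL, at 0.62 (adjusted p = 0.11) and Apoa4 at 0.44 (adjusted p = 0.15). Without both libraries with the fewest genes 4 members were called higher and 1 lower, Apoc3 with an adjusted p of 0.0061, Apoc4 with 0.0052 and Apoa2 with 0.014, and with the share of reads outside genes as a covariate the log2 fold change of Apoc3 was 0.29 (unadjusted p = 0.10).

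Enzymes of cholesterol synthesis were mostly above 0, without a call. Of 21 tested, 18 had an estimate above 0, 3 were higher at an unadjusted p below 0.01, and the median was 0.27. Mvd, mevalonate diphosphate decarboxylase, ranged from 7.81 to 45.1 CPM (median 23.0) at 3 mg/kg and from 26.2 to 107 CPM (median 37.5) at 10 mg/kg, a log2 fold change of 1.06 (SE 0.32, adjusted p = 0.13). Hmgcs1, which makes HMG-CoA, was at 0.56 (adjusted p = 0.13), Fdps, farnesyl diphosphate synthase, at 0.75 (adjusted p = 0.16) and Acat2 at 0.40 (adjusted p = 0.26). Against control mice this list had medians of 0.50 (3 mg/kg) and 0.86 (10 mg/kg). Of 15 genes of sterol regulation and uptake tested, 3 had an estimate above 0 and 1, the lysosomal cholesterol exporter Npc1 at -0.52 (adjusted p = 0.15), was past the unadjusted cut-off.

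Fatty acid genes were split. Of 22 genes of fatty acid synthesis and SREBP1c targets none was called, 1 was higher and 2 lower at the unadjusted cut-off. Fads2, the Δ6-desaturase, ranged from 470 to 736 CPM at 3 mg/kg (median 635) and from 209 to 584 CPM at 10 mg/kg (median 319), and all 8 high-dose mice lay below the low-dose median (log2 fold change -0.78, SE 0.18, adjusted p = 0.069). Scd1, the Δ9-desaturase, was at 21587 ± 4757 and 14941 ± 5377 CPM (SD, n = 8 per group; log2 fold change -0.52, adjusted p = 0.14). Its highest high-dose value, 27863 CPM, was that of replicate 4, and without both libraries with the fewest genes the adjusted p-values of Fads2 and Scd1 were 0.0050 and 0.0047. Fads2 and Scd1 were at -0.35 and -0.26 with the share of reads outside genes as a covariate (unadjusted p = 0.10 and 0.20 from edgeR). Mlxipl, which encodes the carbohydrate-sensing factor ChREBP, was at 0.57 (adjusted p = 0.092), and Pnpla3 spread from 10.4 to 515 CPM at 10 mg/kg (log2 fold change 1.24, adjusted p = 0.26). Of 35 PPAR-α and fatty acid oxidation genes, 1 was higher and 1 lower at the unadjusted cut-off, Pdk4, the brake on pyruvate oxidation, at 1.57 (adjusted p = 0.16) and Cpt1a, the gate of mitochondrial fatty acid entry, at -0.56 (adjusted p = 0.11).

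No drug metabolism gene was called. Of 50 tested, 4 were lower and none higher at an unadjusted p below 0.01 (1.85% of all genes were lower), and the median log2 fold change was -0.12. Ugt1a1, which conjugates bilirubin, ranged from 200 to 355 CPM at 3 mg/kg (median 271) and from 77.4 to 304 CPM at 10 mg/kg (median 130), with 7 of 8 high-dose mice below the low-dose median (log2 fold change -0.91, SE 0.22, adjusted p = 0.069). The value of 304 CPM was that of replicate 4, and without both libraries with the fewest genes the log2 fold change was -1.22 (adjusted p = 0.0015). Ugt1a1 was at -0.38 with the share of reads outside genes as a covariate (unadjusted p = 0.093 from edgeR). Ugt1a9 was at 27.1 ± 7.27 and 10.4 ± 5.81 CPM (SD, n = 8 per group), beside 59.7 ± 29.6 CPM in control mice (log2 fold change between doses -1.38, adjusted p = 0.088, and 0.027 without both libraries with the fewest genes). It was at -1.53 with the covariate (unadjusted p = 0.0040 from edgeR), not past adjustment. The Ugt1a genes share exons, so their counts are uncertain. Abcb1a, an efflux transporter, was at -1.26 (adjusted p = 0.13). Of 22 NRF2 targets 1 was higher and 2 lower at the unadjusted cut-off, with Hmox1, haem oxygenase 1, at -0.81 (adjusted p = 0.12), Txnrd1, thioredoxin reductase 1, at -0.39 (adjusted p = 0.12, and 0.012 without both libraries with the fewest genes) and Gstp1, a glutathione transferase, at 0.55 (adjusted p = 0.20). Txnrd1 was at -0.23 with the covariate (unadjusted p = 0.11 from edgeR).

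Of 22 periportal genes 1, Pigr, was called, 2 were lower and none higher at the unadjusted cut-off, and the median was -0.16. Cps1, the first enzyme of the urea cycle, was at 3377 ± 619 and 1992 ± 948 CPM (SD, n = 8 per group; log2 fold change -0.75, SE 0.20, adjusted p = 0.10). In Cps1, as in Ugt1a1 and Scd1, replicate 4 was the highest of the high-dose mice, at 4022 CPM, and without both libraries with the fewest genes the adjusted p of Cps1 was 0.0047. Cps1 was at -0.47 with the outside-gene share as a covariate (unadjusted p = 0.066 from edgeR). Cyp2f2 was at -0.45 (adjusted p = 0.23) and Hal, histidine ammonia-lyase, at -0.34 (adjusted p = 0.27). None of 23 pericentral genes was past the unadjusted cut-off, with a median of -0.18, so both zones lay slightly below 0. Bile acid and sterol export genes counted 2 lower of 25, Klb, the FGF15 coreceptor, at -0.74 (adjusted p = 0.11) and Abcg8, a subunit of the biliary cholesterol exporter, at -0.55 (adjusted p = 0.13), with adjusted p-values of 0.014 and 0.036 without both libraries with the fewest genes. Klb and Abcg8 were at -0.51 and -0.36 with the covariate (unadjusted p = 0.066 and 0.12 from edgeR).

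Other groups held few genes past the unadjusted cut-off and no call. Lysosomal genes counted 3 lower of 32 (median -0.15), among them Psap, the precursor of the saposins, at -0.43 (adjusted p = 0.13) and Scarb2 at -0.44 (adjusted p = 0.19). Of 34 interferon-stimulated genes 2 were lower, Iigp1 at -0.40 (adjusted p = 0.13) and Usp18 at -0.62 (adjusted p = 0.18). Of 28 complement genes 1 was higher and 1 lower, C8g at 0.35 (adjusted p = 0.18) and Masp1, a protease of the lectin pathway, at -0.88 (adjusted p = 0.13). Among 28 clotting factor genes tested F5, factor V, was the only one past the unadjusted cut-off, at -0.31 (adjusted p = 0.18), and none of 17 fibrinogen and fibrinolysis genes was. Klkb1, also on the clotting list, matched no gene of the annotation and was not examined. Without both libraries with the fewest genes 1 clotting factor gene was called higher and 2 lower, F5 with an adjusted p of 0.037, and 2 fibrinogen and fibrinolysis genes were called lower. Of all genes, 2.1% were called higher and 1.77% lower in that fit. F5 was at -0.14 with the outside-gene share as a covariate (unadjusted p = 0.29 from edgeR). None of 28 acute phase genes was past the unadjusted cut-off, with 14 above 0 and a median of 0.07. The mice of each dose spread widely here. The summed level reached 85157 CPM at 3 mg/kg (median 30546) and 123641 CPM at 10 mg/kg (median 29417). With the outside-gene share as a covariate 27 of the 28 were above 0, 3 were higher at the unadjusted cut-off and none was called, with a median of 0.66. Atf4, the transcription factor of the integrated stress response, was at 0.41 (adjusted p = 0.10), and its target Atf5 at 0.43 (adjusted p = 0.17), 2 higher of 25 ATF4 targets. Trf, transferrin, was at 2156 ± 419 and 3288 ± 752 CPM (SD, n = 8 per group; log2 fold change 0.62, adjusted p = 0.070). Bhlhe40, a repressor of the circadian clock, had a log2 difference of -0.85 (adjusted p = 0.070), with all 8 high-dose mice below the low-dose median. The adjusted p without both libraries with the fewest genes was 0.0049 for Masp1, 0.012 for Scarb2, 0.027 for Iigp1, 0.0495 for Atf4 and 0.0052 for Trf. In that order, these genes were at -0.31, -0.13, -0.41, 0.37 and 0.50 with the outside-gene share as a covariate. Their unadjusted p-values from edgeR in that fit were 0.25, 0.47, 0.013, 0.020 and 0.020. Hamp, the iron hormone hepcidin, spread from 25.5 to 725 CPM at 10 mg/kg (log2 fold change 1.17, adjusted p = 0.29).

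None of the genes of the drug's known targets and their ligands was called between the doses. Of 25 kinases that ponatinib binds, none was past the unadjusted cut-off (median -0.02), with Fgfr3 at 0.46 (SE 0.17, adjusted p = 0.23) and Ripk1 at -0.58 (SE 0.25, adjusted p = 0.29). Among 15 ligands of its receptors Vegfa was higher at the unadjusted cut-off (log2 fold change 0.40, SE 0.13, adjusted p = 0.18). Of 14 collagen genes none was called and 2 were higher at the unadjusted cut-off, Col5a3 at 0.82 (adjusted p = 0.14) and Col5a2 at 0.99 (adjusted p = 0.16). Their list had a median of -0.03 between the doses, and medians of -0.81 at 3 mg/kg and -0.93 at 10 mg/kg against control mice. Without both libraries with the fewest genes the median between the doses was -0.22 and 1 of the 14 was called lower. Col1a1, the main chain of fibrillar collagen, named outside the rule, was between 7.97 and 75.0 CPM at 3 mg/kg (median 12.3) and between 6.31 and 25.6 CPM at 10 mg/kg (median 11.2), beside 99.2 ± 73.1 CPM in control mice (SD, n = 8). Its log2 fold change between doses was -0.46 with a SE of 0.42 (adjusted p = 0.68), and 0.28 without replicate 5 at 3 mg/kg, the mouse at 75.0 CPM.

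Markers of liver cell types gave no call over all 16 mice. Over 12 lists with 109 tested genes 2 were higher and 1 lower at the unadjusted cut-off, and these 3, Trf, Apoa2 and Cps1, are hepatocyte genes. Leaving out both libraries with the fewest genes, 2 of 16 hepatocyte markers were called higher and 1 lower, beside 2.1% and 1.77% of all genes. With limma voom and quality weights 3 were called higher and 3 lower, beside 402 and 400 of all 12464 genes. The hepatocyte markers summed to 142148 to 179799 CPM at 3 mg/kg and 111888 to 174240 CPM at 10 mg/kg, and all 16 were detected in both groups. Kupffer cell markers summed to 983 to 2348 and 707 to 3235 CPM, sinusoidal endothelial markers to 305 to 728 and 201 to 761 CPM, stellate cell markers to at most 746 and 952 CPM, and cholangiocyte markers to 88.4 to 132 and 110 to 175 CPM. Every range overlapped between the doses. Neutrophil, T and NK cell markers were near 0, at no more than 47.8 CPM in any ponatinib mouse.

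Against control mice, in a fit of the 24 control and ponatinib mice, 1892 of 13162 genes were called at 10 mg/kg (14.4%), 1071 of them higher, and none at 3 mg/kg, where 431 had an unadjusted p below 0.01 and 1421 one below 0.05 in edgeR (smallest adjusted p = 0.061). Both comparisons use the same control mice. Lars2 was at log2 fold changes of 0.28 at 3 mg/kg and 1.17 at 10 mg/kg against control, Uqcr11 at 0.34 and 1.14, Peg3 at 0.72 and 2.17, Bcl9l at 0.02 and -0.73, Pptc7 at 0.19 and -0.84, and Neat1 at -0.12 and 0.70. Of these, the values at 10 mg/kg had adjusted p-values of 0.0084 or less, and those at 3 mg/kg of 0.39 or more.

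Nilotinib, another inhibitor of BCR-ABL, was the other drug given at 2 doses, and the step from 10 to 30 mg/kg was set against the ponatinib step by an interaction term in edgeR. The doses and exposures of the drugs are not matched. Of 13640 genes tested in the 32 mice none had a dose step that differed between the drugs at an adjusted p below 0.05 (136 at an unadjusted p below 0.01, 658 below 0.05, smallest adjusted p = 0.33), nor was any gene called for the nilotinib step itself (126 below 0.01, 645 below 0.05). No other tool was run for this contrast. For Lars2 the step was 0.90 with ponatinib and 0.06 with nilotinib, for Bcl9l -0.75 and -0.05, for Uqcr11 0.80 and 0.23 and for Neat1 0.82 and 0.51, all on the log2 scale and none different past adjustment.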

How the data were processed

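Liver RNA of 56 mice was sequenced as poly(A)-selected libraries on a NextSeq 500. Per the labels and the submitters' processing notes, the authors aligned reads to GRCm38 with TopHat2 2.0.14 and Bowtie2 2.1.0, used SAMtools 0.1.18, and made the deposited files, raw counts of reads per gene, with HTSeq 0.6.1p1; the annotation release and strand setting are not given in the sources used here. Summary lines that name no gene (reads outside genes, ambiguous, multiply aligned) were left out of library sizes and tests, and their shares were tested separately by exact two-sided permutation. From the counts, the 8 mice at 10 mg/kg were compared with the 8 at 3 mg/kg in edgeR 4.0.16 (R 4.3.3): TMM normalization, filterByExpr, quasi-likelihood test, Benjamini-Hochberg adjustment over all 12464 genes kept, threshold 0.05. Depth was 6980407 to 15789978 reads on genes, which limits the precision of low genes. CPM levels were scaled by TMM over the 24 control and ponatinib mice. The standard error is the log2 fold change divided by the square root of F. The labels give 8 mice per group and no more on housing or batch.

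Genes named were, leaving out predicted genes and immune receptor segments, the 12 called genes with the smallest p in each direction, the 6 with the largest change in each, and in each of 46 lists up to 4 members with the smallest p and any called; others are said to be chosen after their values were seen. Members and lists were chosen with earlier results of these data known. Of 1167 list entries 5 were not matched (Flt3l, Klkb1, H2-Ea, Ndufb1 and Snhg1). Alternatives were DESeq2 1.42.0, limma 3.58.1 (voom, with and without quality weights), RLE and upper-quartile scaling, other filters and thresholds, larger fits, a covariate and each mouse left out; 2 more were chosen after the data were seen. The fits were tested on simulated data. Promoter and microRNA sequences are from RefSeq, GRCm38.p6. A few genes that the rule names are not reported here.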

Additional observations from a re-analysis of the deposited data

Results flagged for a closer look

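Of 204 groups of 8 mice tested, 23 held 1 mouse farther from the rest than Dixon's 95% limit allows. Chance gives about 1 in 20 groups where these are independent and normally spread. Here the groups share the same mice and the CPM were not transformed, so the count does not measure an excess over that rate. Replicate 4 at 10 mg/kg, one of both libraries with the fewest genes, was the highest of its group in 8 of them, at 304 CPM for Ugt1a1, 4022 for Cps1, 186 for Txnrd1, 55.0 for Masp1, 27863 for Scd1, 50.9 for Mmp14, 113 for Scarb2 and 1535 for Col18a1. All 8 genes had a median at 10 mg/kg below that at 3 mg/kg. Replicate 3 at 10 mg/kg, the library with the most reads outside genes, was the highest in 6, at 1414 CPM for Neat1, 842 for Malat1, 12.4 for Kcnq1ot1, 9299 for mt-Nd1 and 8049 for mt-Nd4, and with 18282 genes with a read.

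At 3 mg/kg replicate 2 had the most reads on genes (15789978), the highest Smpd1 (70.9 CPM) and the lowest Ugt1a9 (11.9 CPM). Replicate 5 was the lowest for Rpl34 (16.1 CPM) and Acat2 (37.7 CPM) and the highest for Col1a1 (75.0 CPM). Replicate 7 was the lowest for Lars2 (551 CPM), replicate 4 the highest for Rps10 (11.5 CPM) and replicate 8 the highest for Gm26917 (173 CPM).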

How the results depend on the processing

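The 31 called genes followed kept their direction in all 868 values computed for them under alternatives and were past the threshold in 507. The number called was 199 with all 56 mice in one fit, 138 with the 24 control and ponatinib mice, 284 with DESeq2, 802 with voom and quality weights, 131 at an adjusted p below 0.1, 0 at one below 0.01, and 0 with the share of reads outside genes as a covariate; with 1 mouse left out it ran from 0 to 542. With upper-quartile scaling 18 were higher and 7 lower, with voom 15 and 12, and without a filter 25 and 16. In 2 settings chosen after the data were seen, leaving out both libraries with the fewest genes gave 484, and adding the covariate to that gave 6. The genes at an unadjusted p below 0.01 (602) were 1327 with quality weights, 1089 without a filter, 90 with the covariate, 1107 without both libraries, 279 with the covariate added to that, and 428 to 1116 with 1 mouse left out.

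At that cut-off the higher respiratory chain subunits (29) were 46 with quality weights, 1 with the covariate, 44 without both libraries, 3 with the covariate added, and 16 to 43 with 1 mouse left out. Ribosomal proteins (12) were 21 with quality weights, 4 with the covariate and 11 to 21 with 1 mouse left out. Lipoprotein genes (5) were 9 with quality weights, 1 with the covariate, 2 with both changes and 3 to 8 with 1 mouse left out. Lower drug metabolism genes (4) were 1 with the covariate, 2 with both changes and 4 to 5 with 1 mouse left out. The difference in reads outside genes was 1.92 to 2.82 percentage points with 1 mouse left out.

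Of the other named genes, 11 of 1876 values turned direction. With both libraries left out and the covariate these were Mlxipl (-0.018), Cpt1a (0.087), Malat1 (-0.22), Col5a3 (-0.012), Kcnq1ot1 (-0.13), Pnpla3 (-1.32), mt-Nd1 (-0.084) and mt-Nd4 (-0.20). With the covariate alone they were Malat1 (-0.16) and Mug1 (0.11), and with 1 mouse left out Col1a1 ran from -0.64 (without replicate 4 at 10 mg/kg) to 0.28 (without replicate 5 at 3 mg/kg), the one value above 0. The cause was not tested. No paired analysis was made. The replicate numbers used here recur in every group and were not taken as pairs.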
